A study of Homo sapiens with 24 samples.

Results

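The clustered protocadherin genes form the alpha, beta and gamma arrays on chromosome 5 of the human genome. All regions of the deposited count tables that overlap the hg19 window from 140.15 to 140.91 Mb of chromosome 5 were taken, whatever their counts, which gave 127 of 153244 regions. By the midpoint of each region, 39 lay in the alpha cluster (140.16 to 140.39 Mb), 30 in the beta cluster (140.43 to 140.63 Mb) and 35 in the gamma cluster (140.71 to 140.89 Mb). Of the other 23 regions, 3 lay before alpha, 1 between alpha and beta, 12 between beta and gamma and 7 after gamma. The 127 regions covered 231 kb, or 30.4% of the window of 760 kb. Their median width was 1160 bp, against 708 bp over all regions.

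The cells were ventricular-like cardiomyocytes differentiated from H9, a human embryonic stem cell line, and were taken at day 15. CUT&Tag, in which an antibody directs the transposase Tn5 to marked nucleosomes, was run for H3K9me3, H3K4me3, H3K4me1 and H3K27ac. Each mark had 3 control libraries and 3 libraries with knockdown of ZNF436, a zinc finger protein gene, which makes 24 libraries. All cells shared the line, the differentiation and the day. The sources used here do not say how ZNF436 was knocked down or what the control cells received. Whether the 3 libraries of a group came from separate cultures is not stated either. The tests therefore rest on the variation from library to library, part or all of which may be technical. An hg19 gene annotation was not used here. Regions are therefore given by position and cluster, not by gene, and neither ZNF436 nor cardiomyocyte markers could serve as a check of the labels.

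Clustered protocadherins are cell adhesion proteins best known from neurons, where each cell uses its own combination and so carries a surface identity. In the alpha and gamma arrays, each variable exon has a promoter of its own and is spliced to constant exons at the end of the array, whereas each beta gene is a single exon. The C-type genes at the ends of alpha and gamma (PCDHAC1, PCDHAC2, PCDHGC3, PCDHGC4 and PCDHGC5) are known to be used more evenly between cells than the other variable exons. H3K9me3 marks silent heterochromatin. H3K4me3 is found at the starts of active genes and H3K4me1 at enhancers, and H3K27ac accompanies either of them where they are active.

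Most promoters of these genes are known to share a conserved element with the letters CGCT at its core. Matches to these letters are shown here because the element is common to many promoters of the window. RefSeq's promoter table (GRCh38.p14, 300 bases per entry, of which 250 lie before the start of the gene) held 52 entries for 47 of the 53 protein-coding genes of the 3 arrays. CGCT stood on either strand in 51 of the 52 entries, or 98.1%, against 70.01% of all 35116 promoters in the table. On the plus strand, 45 of the 52 held it between bases 150 and 260 of the entry, against 31.2% of all promoters. That interval was chosen after the sequences were seen. A CGCT there is a match of letters and need not be the conserved element. The first and the last such promoter of each array are printed with 50 bases on the plus strand and CGCT in capitals, and their GRCh38.p14 positions cannot be compared with the hg19 positions of the regions.
PCDHA1, chr5:140786077-140786126: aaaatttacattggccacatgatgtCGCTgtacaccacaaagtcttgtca
PCDHAC2, chr5:140966410-140966459: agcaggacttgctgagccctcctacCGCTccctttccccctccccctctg
PCDHB1, chr5:141051265-141051314: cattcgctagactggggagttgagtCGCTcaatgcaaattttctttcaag
PCDHB15, chr5:141245305-141245354: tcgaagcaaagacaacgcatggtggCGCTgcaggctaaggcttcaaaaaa
PCDHGA1, chr5:141330394-141330443: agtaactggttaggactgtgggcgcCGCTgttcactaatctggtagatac
PCDHGC4, chr5:141484943-141484992: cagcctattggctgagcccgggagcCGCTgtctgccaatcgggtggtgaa

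The letters before CGCT differed between the arrays. In alpha, 9 of 13 promoters held GATGTCGCT, as PCDHA1 does, and no beta or gamma promoter held it on either strand. In beta, 13 of 14 promoters held GGTGGCGCT, as PCDHB15 does and PCDHB1 does not, and no alpha or gamma promoter held it. Over all promoters of the table these letters stood in 0.105% and 0.501%. In gamma the most frequent form, AGCGCCGCT, was found in 4 of 25 entries. The printed promoters of PCDHAC2 and PCDHGC4, both C-type genes, hold CGCT without the alpha or beta form. CpG dinucleotides were also unevenly placed. The C-type promoters PCDHAC1, PCDHAC2, PCDHGC3 and PCDHGC4 held 27, 15, 18 and 23 CpG in 300 bases, and PCDHGC4 held 24 at a second start. The median was 7.5 over the 52 entries and 14 over all promoters. High values were not limited to C-type genes, since PCDHGB6 held 16 at one start and 25 at another. CCCTC, the letters that give the looping factor CTCF its name, stood on either strand in 30.8% of the entries and in 71.2% of all promoters. CTCF is known to bind these promoters. Its binding motif was not searched for, so these shares do not compare its sites. All of these are matches of letters and were not set beside the marks region by region.

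The H3K9me3 libraries held 2103185 to 2880412 counts each, and the H3K4me3 libraries 11023905 to 13933927. Totals were 3920283 to 4936265 in the H3K4me1 libraries and 2955710 to 3681687 in those of H3K27ac. Levels below are CPM, the count of a region scaled to the size of its library, with library sizes adjusted by TMM, a method that equalises the bulk of the regions between libraries. Levels of different regions or clusters are compared per kb of region. A level of 1 mark is not compared with that of another mark, since each antibody has its own yield. Protocadherin exons are similar in sequence, and the sources used here do not say how reads that fit several copies were counted. The cells of a library are measured together, so fewer cells with a mark and less of it per cell cannot be told apart.

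H3K9me3 was present in most regions of the window, and H3K4me1 and H3K27ac in few of them. A mark was called present where a region was in the top 20% of all regions by mean control CPM per kb. By this rule 75 of the 127 regions (59.1%) had H3K9me3, 30 had H3K4me3, 10 had H3K4me1 and 12 had H3K27ac. In 111 regions of the flanks, which are the 760 kb on either side of the window, the same marks were present in 9, 45, 22 and 32 regions. Over the members, control H3K9me3 per kb ran against the other marks, with a Spearman rho of -0.41 with H3K4me3, -0.46 with H3K4me1 and -0.43 with H3K27ac. The active marks ran together, with rho from 0.57 between H3K4me3 and H3K27ac to 0.68 between H3K4me1 and either of the others. These correlations are over the 127 regions, which share their widths and the libraries of each mark, and are descriptions only.

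**Figure D1:**
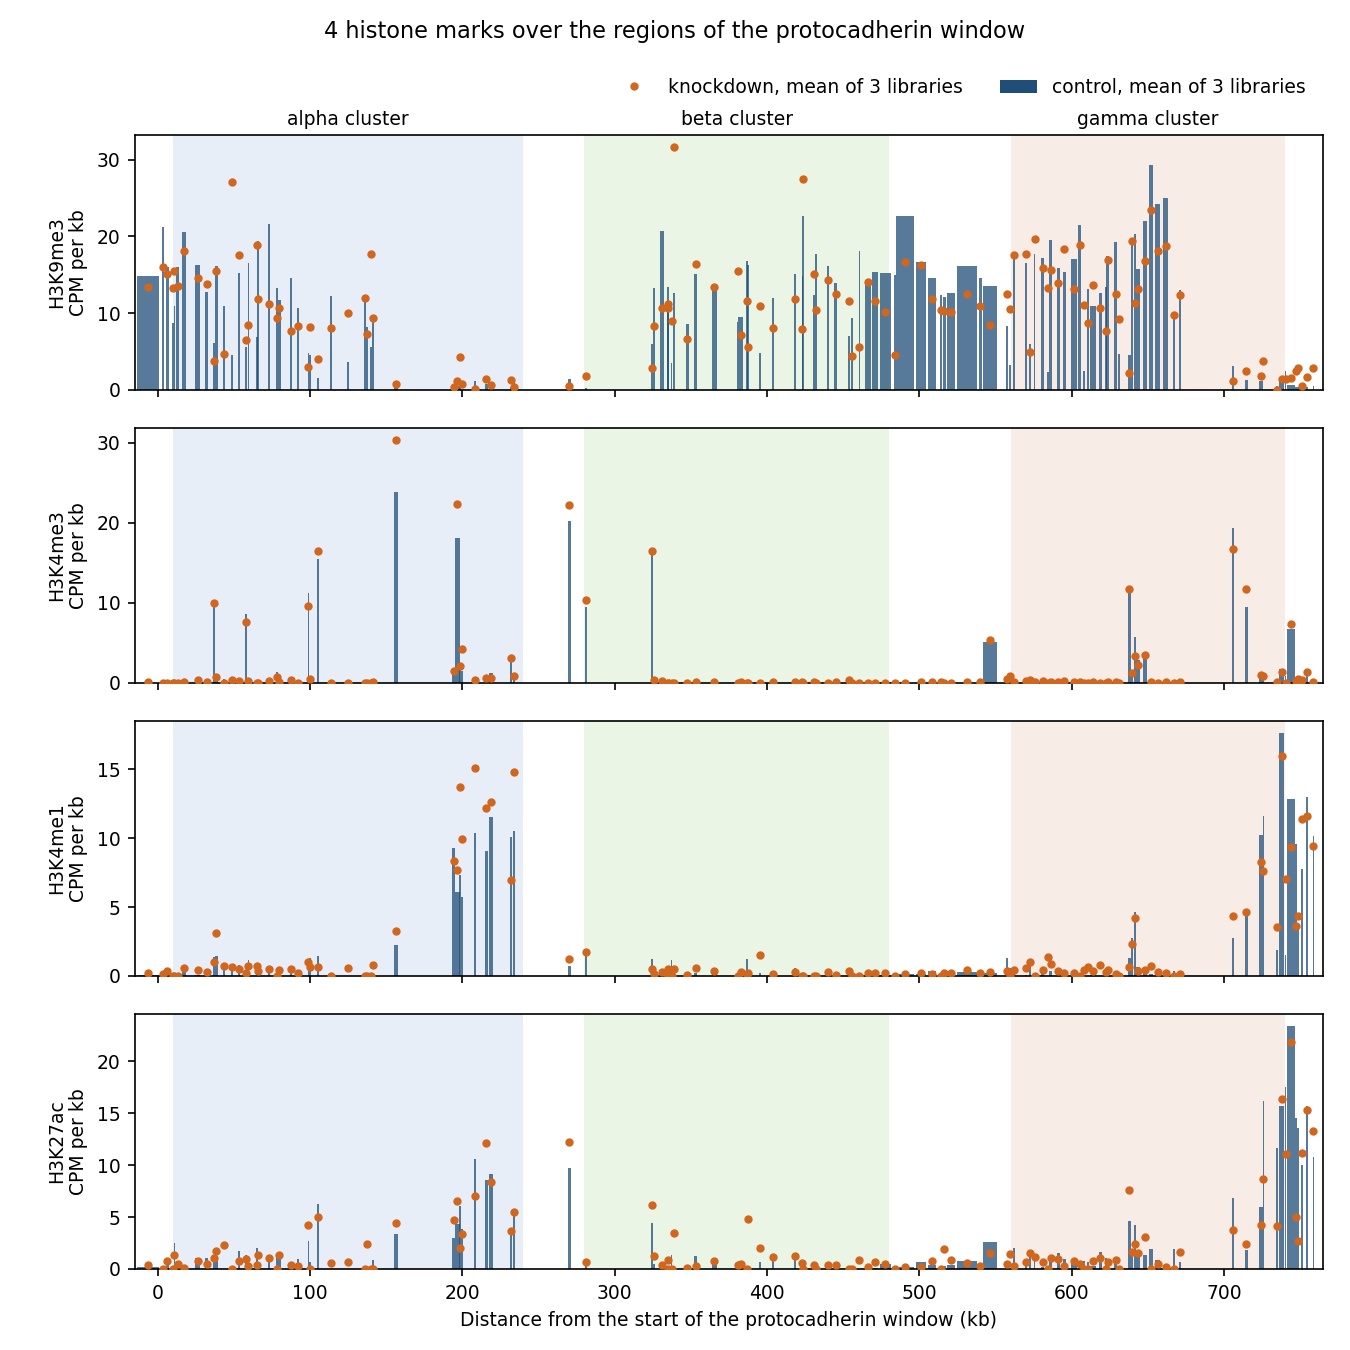
Mean CPM per kb of each mark (vertical axes) at the 127 regions, by distance in kb from the start of the window, with bars for the control mean and points for the knockdown mean of 3 libraries each. H3K9me3 stands at many regions of the first stretch of alpha, beta, the gap between beta and gamma and the first stretch of gamma, and H3K4me1 and H3K27ac stand at the ends of alpha and gamma and after gamma.

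H3K9me3 was densest in gamma and thinnest in alpha. Control libraries held 15.1 CPM per kb of region in gamma, 13.2 in beta and 8.48 in alpha, and 2.06 in the flanks. The gap between beta and gamma, which holds no protocadherin gene but SLC25A2 and TAF7 by the RefSeq gene order, held 16.2. The gamma to alpha ratio was 1.79 ± 0.232 (SD, n = 3) in control and 1.71 ± 0.178 (SD, n = 3) in knockdown libraries, above 1 in each of the 6. The gamma to beta ratio was closer to 1, at 1.14 ± 0.0806 (SD, n = 3) and 1.24 ± 0.0873 (SD, n = 3). The order of the 3 clusters was thus the same in both groups, and the control and knockdown ratios overlapped.

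Within alpha and gamma the mark stopped before the end of the array. In alpha, 17 regions had H3K9me3, from chr5:140160760 to 140285968, and none of the last 10 regions did. In gamma, 24 had it, from chr5:140711652 to 140821505, and none of the last 6 did. These last stretches begin with the regions chr5:140305217-140307354 and chr5:140855282-140856847, and the split was placed after the values were seen. Control H3K9me3 was 12.8 CPM per kb in the first and 0.682 in the last stretch of alpha, and 17.6 and 1.45 in gamma. The first stretch of alpha was thus close to beta, at 13.2, and the low density of alpha as a whole includes its last stretch. In beta, by contrast, regions with H3K9me3 ran from chr5:140475427 to 140631121, the end of the array. The regions with H3K9me3 nearest the limit of 9.73 CPM per kb stood at 10.05 inside and 9.44 outside.

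The region with the densest control H3K9me3 held 21.6 CPM per kb in alpha, 22.7 in beta and 29.3 in gamma. In CPM not scaled to width, the regions with the most H3K9me3 lay outside the clusters. At chr5:140634526-140646264, in the gap between beta and gamma, control libraries held 273, 224 and 300 CPM. At chr5:140136528-140150480, which crosses the start of the window, they held 194, 197 and 229 CPM. Both regions are wide, and per kb they held 22.6 and 14.8 CPM, below the densest regions of beta and gamma.

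H3K4me1 and H3K27ac were denser in the last stretches than in the first. Control H3K4me1 was 0.465 CPM per kb in the first and 8.06 in the last stretch of alpha, and 0.359 and 9.87 in gamma. H3K27ac was 1.10 and 6.05 in alpha, and 1.12 and 8.78 in gamma. By the presence rule, however, H3K27ac was present in 1 of the 10 regions of the last stretch of alpha and in 3 of the 6 of gamma, and H3K4me1 in 4 and 3. The alpha value of H3K27ac was also below the 6.91 CPM per kb of the flanks. Beta had no such stretch: its control means were 0.233 CPM per kb for H3K4me1 and 0.582 for H3K27ac over the whole cluster. The densest H3K27ac of the window lay after gamma, at 18.7 CPM per kb, where all 7 regions had the mark. It was led by chr5:140891651-140896777, which held 122, 156 and 82.2 CPM of H3K27ac in the control libraries and 103, 108 and 125 in the knockdown libraries. The next gene after PCDHGC5 by the RefSeq order is DIAPH1, a regulator of actin filaments, and whether this region belongs to it was not tested.

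**Figure D2:**
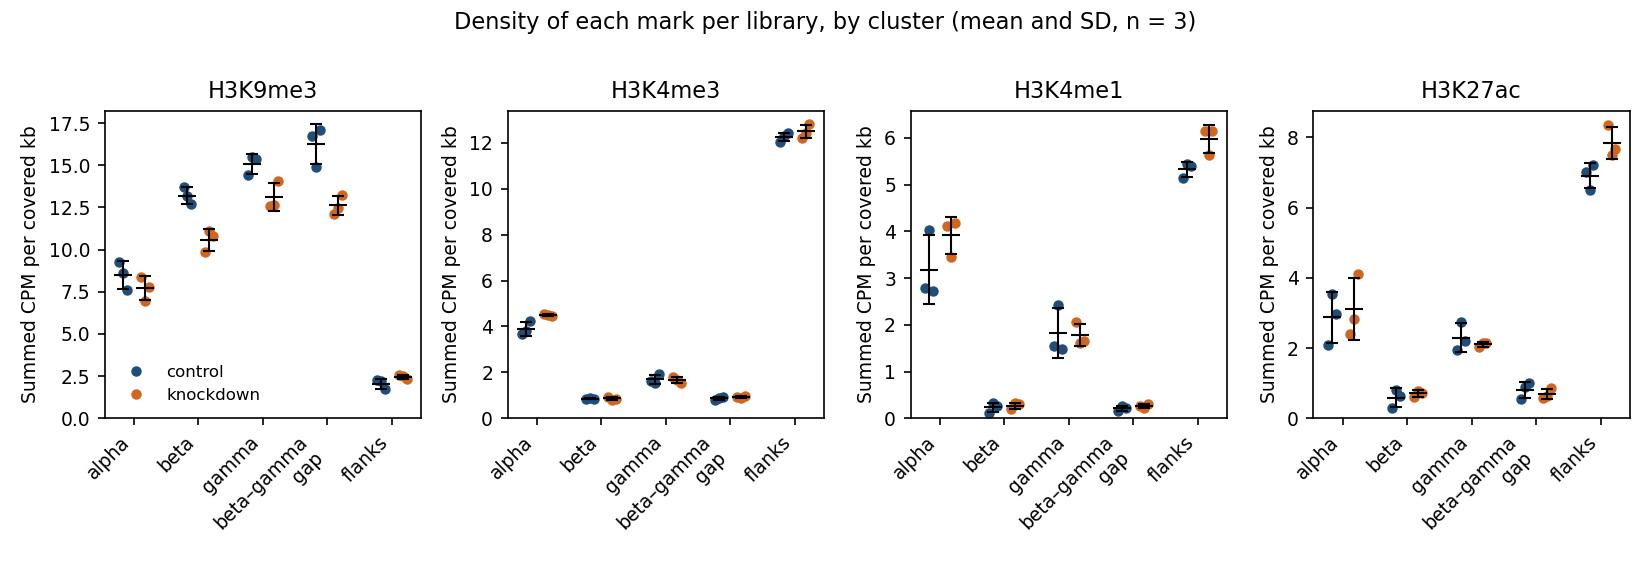
Summed CPM per covered kb of each mark (vertical axes) in each library, by cluster, for the gap between beta and gamma and for the flanks, with points for libraries and the mean and SD of 3. H3K9me3 is several times denser in each cluster than in the flanks, and the active marks are denser in the flanks than in any cluster.

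H3K4me3 was present in all 3 clusters, but in few regions of beta. It was present in 14 regions of alpha, 9 of gamma and 2 of beta, and the control density was 3.89, 1.69 and 0.850 CPM per kb, against 12.3 in the flanks. The limit for this mark was low, at 0.614 CPM per kb, so only 16 of the 30 regions held over 5 CPM. In the first stretch of alpha 4 regions held over 5 CPM, in its last stretch 2, in beta 2, in the first stretch of gamma 3 and in its last stretch 2. The highest of the first stretch of alpha, chr5:140254533-140255630, held 15.8, 15.0 and 20.5 CPM in the control libraries, or 15.5 CPM per kb. The highest of the last stretch, chr5:140305217-140307354, held 49.4, 50.1 and 53.8 CPM, or 23.9 CPM per kb, and chr5:140345360-140348114 held 45.6, 49.1 and 55.4 CPM, or 18.2 per kb. Most of the difference in CPM between these regions went with their widths. Per kb, the first region of the last stretch was the densest of the window, followed by chr5:140419266-140421068 between alpha and beta at 20.3 and chr5:140855282-140856847 in gamma at 19.3. In RefSeq order the alpha array ends with the C-type genes PCDHAC1 and PCDHAC2, and which region lies at which gene was not determined.

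In beta the strongest H3K4me3 region was chr5:140473967-140475337, with 22.3, 23.9 and 22.1 CPM in the control libraries. By the presence rule, H3K9me3 of beta began 89 bp further on, at chr5:140475427-140476483, with 10.5, 19.9 and 11.7 CPM of that mark. The H3K4me3 region lay below the limit but was not free of H3K9me3, with 8.13 ± 2.55 CPM (SD, n = 3) in control libraries. A similar pair of neighbours stood in alpha. The region chr5:140186314-140187536 held 14, 9.99 and 11.4 CPM of H3K4me3 and 7.44 ± 5.42 CPM (SD, n = 3) of H3K9me3. The next region, chr5:140187687-140189200, 150 bp on, held 24.4 ± 1.66 CPM (SD, n = 3) of H3K9me3. Of the 30 regions with H3K4me3, 11 had a region with H3K9me3 as the next one at higher coordinates, and for 6 of these it lay within 1000 bp. Since 75 of the 127 regions had H3K9me3, such neighbours were no more frequent than regions with the mark in general.

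Some regions held both marks. H3K4me3 and H3K9me3 were both present in 7 of the 127 regions, or 5.51%, against 655 of all regions, or 0.427%, and in 0 of the 111 flanking regions. Each mark alone was also more frequent in the window, at 59.1% for H3K9me3 and 23.6% for H3K4me3, against 20% of all regions. The higher share with both thus does not show that the marks met more often than their own frequencies give. Within the window they ran against each other (Spearman rho -0.41). The count rests on the limit, since with the top 10% of regions for each mark it was 1, against 55 of all regions. Of the 7, 4 lay in gamma, 2 in alpha, 1 in the gap between beta and gamma and 0 in beta. With H3K4me3 over 5 CPM there were 3. The widest, chr5:140691888-140701207 in the gap, held 126 ± 4.50 CPM (SD, n = 3) of H3K9me3 and 47.6 ± 2.12 (SD, n = 3) of H3K4me3 in control libraries. In gamma, chr5:140796675-140799749 held 67.5 ± 12.9 CPM (SD, n = 3) of H3K9me3 and 10.5 ± 1.83 (SD, n = 3) of H3K4me3. Its neighbour chr5:140792465-140795108 held 41.5 ± 5.30 (SD, n = 3) and 7.65 ± 1.83 (SD, n = 3). Both marks in 1 region can come from different cells, alleles or ends of it, and these were not told apart. In knockdown libraries 5 regions held both marks, against 935, or 0.610%, of all regions.

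The comparison of knockdown with control asks whether these marks depend on ZNF436. By edgeR's quasi-likelihood test on the counts, at a Benjamini-Hochberg adjusted p under 0.05 over all regions tested, 0 members were called in any of the 4 marks. For H3K9me3, 70 members passed the filter on low counts and 0 were called, where 0.00982% of all regions were (3 of 30565). At an unadjusted p under 0.05, 10 members were lower and 0 higher in knockdown, against 4.32% and 3.99% of all regions. For H3K4me3, 28 members were tested and 0 called, where 0.560% of all regions were. At an unadjusted p under 0.05, 3 were higher and 0 lower, against 5.26% and 4.93%. For H3K4me1, 22 members were tested, and 0% of all regions were called. At an unadjusted p under 0.05, 1 member was lower and 0 higher, against 5.58% and 4.91%. For H3K27ac, 29 members were tested and 0 called, where 0.0114% of all regions were. None of them had an unadjusted p under 0.05, against 5.35% of all regions lower and 5.91% higher. DESeq2 called 1 member in H3K9me3 and 0 in the other marks, and limma-voom called 0 in each mark.

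H3K9me3 was lower in knockdown libraries across beta, the gap and gamma. Over the window it summed to 3051, 2966 and 3070 CPM in the control libraries and to 2480, 2471 and 2659 CPM in the knockdown libraries. Every knockdown library lay below every control library, and the means differed by -0.26 on the log2 scale, or -16.2%. In the flanks the direction was the other way, with 304, 296 and 232 CPM in control and 346, 336 and 312 CPM in knockdown libraries, a log2 difference of 0.26. The flanks held little of this mark, at 2.06 CPM per kb in control libraries, and only 12 of their regions were tested. Their H3K4me1 and H3K27ac sums were also higher in knockdown libraries without overlap, at log2 differences of 0.17 and 0.18. Over all 153244 regions, with no filter, the knockdown mean of H3K9me3 was higher at 91042. Of the 30565 regions that passed the filter, 15543 had a log2 fold change above 0. Whether a wider shift of H3K9me3 counts toward weak regions gives the contrast of window and flanks was not tested. As a share of all counts of a library, members held 0.266% ± 0.0144 (SD, n = 3) in control and 0.209% ± 0.00767 (SD, n = 3) in knockdown libraries. No test was made on such sums, for which 3 against 3 libraries allow an exact permutation p of 0.1 at the lowest.

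The difference was not the same size in the 3 clusters. In beta H3K9me3 summed to 618, 595 and 574 CPM in control and 445, 502 and 487 CPM in knockdown libraries, with no overlap and a log2 difference of -0.32. In gamma it summed to 851, 914 and 906 against 741, 748 and 830 CPM, again with no overlap, and the log2 difference was -0.20. In alpha it summed to 389, 363 and 319 against 351, 293 and 329 CPM, where the groups overlapped and the log2 difference was -0.14. The gap between beta and gamma showed the largest difference among these parts, with 956, 849 and 976 against 692, 712 and 756 CPM and a log2 difference of -0.36. The ratios between clusters overlapped between the groups, so a difference between clusters in their response was not separated from the spread between libraries.

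Single regions mostly went the same way. Of the 70 tested members, 57 were lower and 13 higher in knockdown libraries, while 49.1% of all tested regions were lower. The median log2 fold change was -0.28, against 0.01 over all regions tested. It was -0.27 over 15 regions of alpha, -0.39 over 19 of beta, -0.20 over 23 of gamma and -0.31 over 9 of the gap. All knockdown libraries lay below all control libraries at 12 members and above them at 0, where 7.19% and 7.17% of all tested regions did so. Of the 12, 6 lay in gamma, 4 in beta, 2 in the gap and 0 in alpha. Passing the filter depends on the counts that are compared. Without it, the knockdown mean was lower at 80 of the 127 members and higher at 47, and it was lower at 36.7% of all 153244 regions.

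The direction over all regions with much H3K9me3 depended on how they were chosen, and that in the window did not. Of all 21445 tested regions in the top 20% of control H3K9me3, 62.2% were lower, with a median log2 fold change of -0.13. In the window 52 of 61 such regions (85.2%) were lower, with a median of -0.27. Choosing regions on control values favours a lower knockdown value, so the class was also set on knockdown libraries. By that rule 42.0% of 18602 tested regions were lower, with a median of 0.09, and in the window 36 of 47 (76.6%) were lower, with a median of -0.18.

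**Figure D3:**
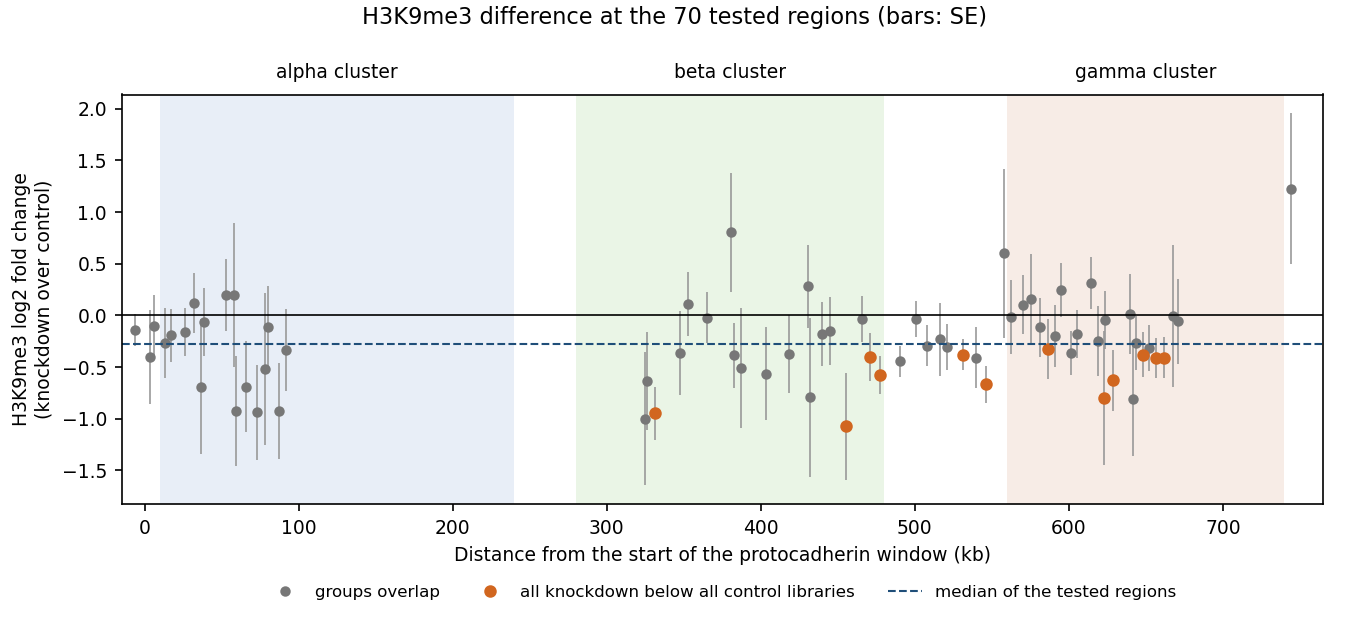
Log2 fold change of H3K9me3, knockdown over control (vertical axis), with its SE at the 70 tested regions, by distance in kb from the start of the window. Of the points, 57 lie below 0, and the 12 regions whose knockdown libraries all lie below the control libraries are in beta, gamma and the gap between them.

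The H3K9me3 region with the smallest p was the wide region of the gap that also held H3K4me3. At chr5:140691888-140701207 the control libraries held 128, 128 and 120 CPM and the knockdown libraries 80.7, 81.9 and 75 CPM. The groups were far apart for their spread, and the log2 fold change was -0.66 (SE 0.18). Its adjusted p was 0.211 by edgeR's quasi-likelihood test and 0.0287 by DESeq2, and from 0.0287 to 0.519 over 14 alternatives. H3K27ac was lower in the same region, with 20.7, 24.2 and 28.6 CPM in control and 9.18, 17 and 16 CPM in knockdown libraries. These groups did not overlap either, and the H3K27ac log2 fold change was -0.80 (SE 0.39, edgeR adjusted p = 0.461). H3K4me3 there was 45.1, 48.7 and 48.9 CPM in control and 48.8, 48.3 and 52.3 CPM in knockdown libraries, and the groups overlapped.

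In beta the largest H3K9me3 region and a region near the start of its H3K9me3 were both lower. At chr5:140479985-140482627, 54.2, 57.5 and 52.8 CPM in control libraries stood against 17.7, 36.4 and 30.5 CPM in knockdown libraries. All 3 knockdown libraries were lower, although they differed among themselves by more than the control libraries did, and the log2 fold change was -0.95 (SE 0.26, edgeR adjusted p = 0.211). At chr5:140623917-140631121, which had the most H3K9me3 of beta, 97.3, 107 and 123 CPM stood against 60.7, 74.2 and 84.3 CPM. These groups did not overlap, and the log2 fold change was -0.58 (SE 0.19, edgeR adjusted p = 0.331). The region with the most H3K9me3 of gamma, chr5:140804507-140808197, held 79.6, 90.8 and 97.4 CPM in control and 52.1, 70.8 and 77.5 CPM in knockdown libraries. The groups were apart by a narrow margin, with a log2 fold change of -0.41 (SE 0.20, edgeR adjusted p = 0.582). That of alpha, chr5:140174634-140177711, held 54.6, 41.4 and 54.6 against 38.9, 46.5 and 49.2 CPM, and its groups overlapped (log2 fold change -0.16, SE 0.24).

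The 3 regions with the smallest p among those higher in knockdown libraries all overlapped between the groups. At chr5:140891651-140896777, the H3K27ac region after gamma, H3K9me3 was 2.88, 7.52 and 0 CPM in control and 6.87, 10.2 and 6.78 CPM in knockdown libraries. At chr5:140530266-140530916 in beta it was 4.79, 3.76 and 8.66 against 7.44, 9.70 and 13.1 CPM. At chr5:140762205-140766019 in gamma it was 22.5, 45.6 and 57.1 against 60.7, 39.8 and 55.9 CPM. In the last of these control library 1 stood apart, and without it the log2 fold change went from 0.31 to -0.02.

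H3K4me3 was higher in knockdown libraries in alpha, mostly through a few regions of its last stretch. Over alpha it summed to 154, 160 and 178 CPM in control and 190, 190 and 188 CPM in knockdown libraries. Every knockdown library was above every control library, with a log2 difference of 0.21. The difference lay in the last stretch, with 103, 112 and 118 against 140, 137 and 136 CPM and a log2 difference of 0.31, while the first stretch overlapped at 53.0 ± 6.04 CPM (SD, n = 3) and 51.6 ± 1.14 CPM (SD, n = 3). In beta the sums were 38.4 ± 1.39 CPM (SD, n = 3) and 39.1 ± 2.70 (SD, n = 3), and in gamma 99.8 ± 11.7 (SD, n = 3) and 98.6 ± 6.74 (SD, n = 3). Both clusters overlapped between the groups. The gamma to alpha ratio of H3K4me3 per kb was 0.433 ± 0.0284 (SD, n = 3) in control and 0.371 ± 0.0234 (SD, n = 3) in knockdown libraries, without overlap.

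Of the 28 members tested for H3K4me3, 18 were higher and 10 lower in knockdown libraries, with a median log2 fold change of 0.06 against -0.01 over all regions tested. The share of all tested regions below 0 was 51.6%. All knockdown libraries lay above all control libraries at 5 members and below them at 0, where 8.49% and 7.74% of all tested regions did so. Of these 5, 4 were in alpha and 1 was the region between alpha and beta. The strongest region, chr5:140305217-140307354, held 49.4, 50.1 and 53.8 CPM in control and 66.7, 59.5 and 68.4 CPM in knockdown libraries. The groups were clearly apart, with a log2 fold change of 0.34 (SE 0.09, edgeR adjusted p = 0.121). At chr5:140345360-140348114, 45.6, 49.1 and 55.4 CPM stood against 64.4, 65.2 and 55.5 CPM. Here the lowest knockdown library and the highest control library were nearly equal (log2 fold change 0.30, SE 0.10, edgeR adjusted p = 0.249). The third was chr5:140349278-140349719, a weak region with 0.504, 0.584 and 0.860 against 1.03, 1.75 and 2.81 CPM (log2 fold change 1.52, SE 0.60, edgeR adjusted p = 0.359).

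Other H3K4me3 regions did not separate the groups. In beta, chr5:140473967-140475337 held 26.7, 19.4 and 21.9 CPM in knockdown libraries, around its control values given above, with a log2 fold change of -0.01 (SE 0.16). In gamma, the strongest region, chr5:140855282-140856847, held 34.4, 26.0 and 30.3 CPM in control and 29.2, 27.3 and 22.3 CPM in knockdown libraries (log2 fold change -0.20, SE 0.15). Both sets overlapped. The regions chr5:140791256-140791854 in gamma and chr5:140367169-140369891 in alpha had the smallest p among those lower, at log2 fold changes of -0.79 (SE 0.45) and -1.10 (SE 0.60). Both overlapped between the groups, and each difference shrank when 1 control library was left out. Without control library 3 the first was -0.38, so part of it stayed. In the second, control library 2 held 6.93 CPM against 2.35 and 1.03 in the others, and without it the log2 fold change was -0.072. The second difference thus rested on that library.

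**Figure D4:**
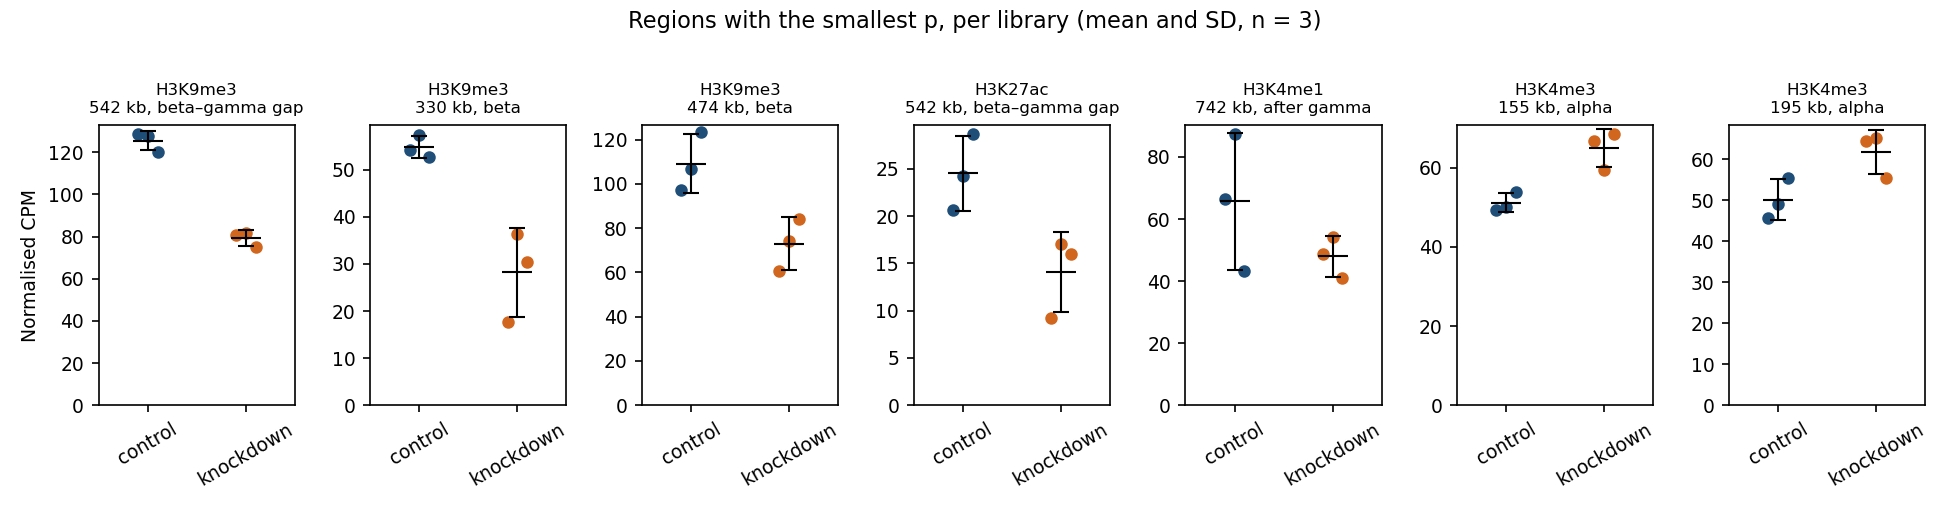
Normalised CPM per library (vertical axes) with the mean and SD of 3 at the regions with the smallest p of each mark, named by mark and by distance in kb from the start of the window. They were chosen for their p, the groups overlap in the H3K4me1 panel and not in the others, and the edgeR adjusted p ranges from 0.121 at the first H3K4me3 region to 0.461 at the H3K27ac region of the gap.

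The summed H3K4me1 and H3K27ac of each cluster overlapped between the groups. For H3K4me1, alpha held 118, 170 and 115 CPM in control and 173, 146 and 176 CPM in knockdown libraries. Control library 2 was well above the other control libraries, and the sums overlapped, with a log2 difference of 0.30. In gamma control library 2 was again the highest, with 91.2, 144 and 87.0 CPM against 121, 95.3 and 98.1 CPM. Beta held 10.5 ± 4.70 (SD, n = 3) and 12.1 ± 3.11 CPM (SD, n = 3). Since library 2 was high in both clusters, their ratio varied less. The gamma to alpha ratio of H3K4me1 per kb was 0.553, 0.603 and 0.541 in control and 0.499, 0.467 and 0.398 in knockdown libraries, without overlap.

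Of the 22 members tested for H3K4me1, 13 were higher and 9 lower, with a median log2 fold change of 0.38 against -0.03 over all regions tested, of which 52.2% were below 0. In the flanks the median was 0.16 over 83 regions. The members' median rested on alpha: 9 of its 11 tested regions were higher, against 1 of 5 in gamma, and no region of beta passed the filter. All knockdown libraries lay above all control libraries at 3 members and below them at 0, where 7.90% and 7.68% of all tested regions did so. The smallest p was at chr5:140891651-140896777, after gamma, with 66.5, 87.5 and 43.1 CPM in control and 48.7, 54.2 and 41.1 CPM in knockdown libraries. The groups overlapped through control library 3, and the log2 fold change was -0.45 (SE 0.21, edgeR adjusted p = 0.450). Without that library it was -0.69, with an adjusted p of 0.0368, in a range from 0.0368 to 0.827 over 14 alternatives. Leaving out that library also took the H3K4me1 calls over all regions from 0 to 2443, or 2.71% of those tested, so the call was not particular to this region. The others lower with the smallest p were chr5:140873007-140875305 in gamma (-0.31, SE 0.29) and chr5:140381822-140382305 in alpha (-0.54, SE 0.61), and both overlapped.

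Among regions with higher H3K4me1, chr5:140900659-140902048 after gamma held 8.79, 13.7 and 9.87 CPM in control and 15.6, 16.1 and 15.8 CPM in knockdown libraries. The knockdown libraries were close together and all above the control libraries (log2 fold change 0.55, SE 0.33, edgeR adjusted p = 0.566). At chr5:140348284-140348845 in alpha, 3.60, 6.35 and 2.34 CPM stood against 6.48, 7.08 and 9.54 CPM, also without overlap (log2 fold change 0.91, SE 0.48). At chr5:140187687-140189200 in alpha, 1.35, 3.42 and 1.82 CPM stood against 5.19, 3.18 and 5.81 CPM, and the groups overlapped. The regions with the most H3K4me1 of alpha and gamma, chr5:140367169-140369891 and chr5:140886359-140889159, overlapped too, at log2 fold changes of 0.13 (SE 0.24) and -0.15 (SE 0.21).

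For H3K27ac, alpha held 88.2, 149 and 125 CPM in control and 101, 119 and 173 CPM in knockdown libraries. Gamma held 115, 162 and 130 against 119, 126 and 127 CPM, and beta 26.3 ± 12.0 (SD, n = 3) against 31.9 ± 4.30 CPM (SD, n = 3). All 3 clusters overlapped between the groups. The gamma to beta ratio of H3K27ac per kb was 6.72, 3.37 and 3.42 in control and 3.34, 2.71 and 2.95 in knockdown libraries, which did not overlap by a narrow margin. Control library 1 stood apart in this ratio and held 13.1 CPM of H3K27ac in beta. A ratio was formed for each pair of the 3 clusters in each of the 4 marks, and none was tested. For 3 against 3 libraries an exact permutation p is 0.1 at the lowest, so some of these ratios may separate by chance. Of the 29 members tested, 15 were higher and 14 lower, with a median log2 fold change of 0.06 against -0.05 over all regions tested, of which 52.8% were below 0. All knockdown libraries lay above all control libraries at 3 members and below them at 2, where 9.14% and 8.37% of all tested regions did so. These counts are small, and the lowest adjusted p among the members was 0.461.

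Of the named H3K27ac regions, the region with the most of it in alpha, chr5:140367169-140369891, held 17.6, 42.9 and 14.3 CPM in control and 13.9, 24.2 and 30.5 CPM in knockdown libraries. Control library 2 was high here, as it was at the region with the most H3K27ac of gamma, chr5:140886359-140889159, with 36.5, 65.3 and 30.1 against 49.3, 49.6 and 38.8 CPM. Next to the alpha region, chr5:140364604-140366866 held 16.9, 23.5 and 18.0 against 25.2, 23.9 and 33.3 CPM, without overlap (log2 fold change 0.50, SE 0.35, edgeR adjusted p = 0.648). The region with both H3K9me3 and H3K4me3 in gamma, chr5:140796675-140799749, held 5.51, 4.04 and 2.94 CPM of H3K27ac against 12.6, 5.30 and 10.2 CPM. These groups overlapped in a single pair of libraries (log2 fold change 1.16, SE 0.64, edgeR adjusted p = 0.525). Its H3K9me3 was 64.7, 81.6 and 56.3 CPM in control and 48.1, 53.3 and 53.8 CPM in knockdown libraries, without overlap. The beta region of highest H3K27ac was chr5:140473967-140475337, its strongest H3K4me3 region, with 2.07, 8.81 and 7.34 against 8.16, 6.06 and 11.1 CPM.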

How the data were processed

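The deposited values are unnormalized counts, 1 per library for each of the same 153244 regions. Tools listed in the submitters' processing notes are deepTools 3.5.4, bedtools 2.30.0 and Bowtie2 2.4.5, without their roles, and the build is hg19. The sources used here do not say how the regions were made. Even numbers were 51.9% to 65.9% of the counts above 0, so both mates of a pair may have been counted, and intervals on counts would then be too narrow.

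The group, the mark and the replicate number came from the titles. Each mark was fitted on its own 6 libraries over all regions with edgeR 4.0.16 (R 4.3.3): filterByExpr, TMM, robust quasi-likelihood fit with the group as its term, Benjamini-Hochberg adjustment. After the filter, H3K9me3 kept 30565 regions, H3K4me3 26773, H3K4me1 85815 and H3K27ac 61484. CPM use the TMM-scaled library sizes. Cluster sums take all regions whose midpoint lies in the cluster and have no test. Alternatives were RLE size factors, library totals, no filter, a strict filter, DESeq2 1.42.0, limma-voom (limma 3.58.1), a replicate block, halved counts, leaving out each library and, for the sums, wider bounds, filtered regions or no largest region. Counting only the 126 regions wholly inside the window was added after seeing the data.

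Named regions are, per mark, the member with the highest mean CPM of each cluster and, by rank of p, the first 3 members higher and the first 3 lower in knockdown libraries; others were singled out after their values were seen. Members, lists and rules were chosen with earlier results of these data known. Lists of pathway genes and cell type markers need an hg19 annotation and were not analysed here.

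On simulated counts with 200 changed regions, the H3K9me3 test recovered 18.9% of changes of 1 on the log2 scale (17 of 90) and 63.3% of changes of 2. Recovery of changes of 1 was 61.3% for H3K4me3, 9.78% for H3K4me1 and 3.37% for H3K27ac. Chi-square per degree of freedom between libraries of 1 group was 3.06 to 8.38, so no pair was a library deposited again.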

Additional observations from a re-analysis of the deposited data

How the results depend on the processing

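The number of members called was 0 under every alternative in H3K4me3 and H3K27ac. It was 1 in H3K9me3 with DESeq2, at chr5:140691888-140701207 (log2 fold change -0.67), and 1 in H3K4me1 without control replicate 3, at chr5:140891651-140896777 (-0.69), where 2443 of 90015 regions tested, or 2.71%, were called, so leaving out a library gave 0 to 1 in H3K4me1 and 0 in the other marks. Regions with both H3K4me3 and H3K9me3 were 7, 5 when set on knockdown libraries and 1 with the top 10% of regions. The sums were not recomputed with the library sizes of the no-filter or strict-filter fits. Over their 11 alternatives the log2 difference of the H3K9me3 sum stayed below 0. It was -0.25 to -0.09 in alpha, -0.37 to -0.27 in beta and -0.28 to -0.18 in gamma. That of H3K4me3 in alpha stayed above 0, at 0.14 to 0.27. H3K4me1 in alpha gave 0.19 to 0.50. Other sums crossed 0 in some setting, and H3K4me1 of beta has no value over filtered regions, since none passed. The median H3K9me3 log2 fold change of the members moved with the filter, from -0.28 in the main fit. It was -0.13 over 48 members with the strict filter, 34 of them lower, against 0.0005 over all regions tested. With no filter it was -0.36 over 127 members, 87 of them lower in that fit, against 0.20.

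When a library was left out, the log2 difference of the sum ranged in alpha from -0.23 to -0.09 for H3K9me3, 0.17 to 0.27 for H3K4me3, 0.19 to 0.50 for H3K4me1 and -0.12 to 0.30 for H3K27ac. In the same order of marks, beta gave -0.37 to -0.30, -0.02 to 0.08, -0.12 to 0.52 and -0.02 to 0.61, and gamma -0.28 to -0.20, -0.09 to 0.08, -0.17 to 0.23 and -0.21 to 0.03.

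Signs of named regions with small differences turned when 1 library was left out. These were H3K9me3 at chr5:140762205-140766019 (-0.024 to 0.60), H3K4me3 at chr5:140473967-140475337 (-0.14 to 0.10), and H3K4me1 at chr5:140367169-140369891 (-0.053 to 0.34), chr5:140886359-140889159 (-0.30 to 0.14), chr5:140873007-140875305 (-0.51 to 0.076) and chr5:140381822-140382305 (-0.90 to 0.25). H3K27ac turned at chr5:140367169-140369891 (-0.37 to 0.53) and at chr5:140886359-140889159 (-0.10 to 0.46), the latter also with the strict filter (-0.043).

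With the replicate number as a block, 0 members were called in each mark. Over all regions the block gave 6 calls against 3 in H3K9me3, 177 against 150 in H3K4me3, 94 against 0 in H3K4me1 and 102 against 7 in H3K27ac. Deviations of libraries of the same number had correlations of -0.10 to 0.06, and those of different numbers -0.08 to 0.10. Such correlations cannot settle whether libraries of 1 number share a culture or batch, which the sources used here do not state. Counting settings moved the calls over all regions too: DESeq2 gave 49, 456, 94 and 669 in the same order, and limma-voom 6, 112, 67 and 185. In simulated counts, changes of 1 on the log2 scale were recovered least often in H3K27ac (3.37%) and H3K4me1 (9.78%), so a member that differs by that much could be missed. How far depth sets this was not tested.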
